A study of Bos taurus with 20 samples.

Results

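The mitochondrial solute carriers of the SLC25 family were examined in bovine morulae, the solid ball of cells that precedes the blastocyst. The members were the probe sets of the array whose only annotated gene symbol starts with SLC25A. This rule gave 45 of 26773 probe sets and 44 genes, since *SLC25A6* has 2 probe sets, which were kept apart. Of the 45 probe sets, 26 (25 genes) lay in the tested set, the 9933 probe sets with the highest mean signal, and 19 lay below it.

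SLC25 carriers sit in the inner mitochondrial membrane, with a few members in the outer membrane or the peroxisome, and pass nucleotides, phosphate, carboxylates, amino acids, cofactors and metal ions between compartments. Each carrier alternates between a state open to the cytosol and a state open to the matrix, so that the metabolism of the matrix depends on which carriers are present. The early bovine embryo draws much of its ATP from oxidative phosphorylation, for which ADP and phosphate must enter the matrix and ATP must leave it. The substrates named below are known mainly from human, mouse and yeast proteins.

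Female and male embryos were made in vitro with X- or Y-sorted sperm, a sort that is not complete, so that pools may hold embryos of the other sex. On day 5 after insemination each culture drop received recombinant human DKK1, an inhibitor of WNT signaling, to 100 ng/ml or its vehicle, phosphate-buffered saline with bovine serum albumin, and morulae were harvested 24 h later, on day 6. This gave 4 groups, controls and DKK1-treated embryos of each sex, each with 5 pools of 20 morulae, compacted and non-compacted together. RNA of each pool was amplified and hybridized to 1 Affymetrix Bovine Gene 1.0 ST array, which gave 20 arrays with 1 log2 intensity per probe set. Pools are the replicates, so the P values set each difference against the spread between pools. The fit takes the pools as independent, although in each fertilization the same bulls provided the X- and the Y-sorted sperm. Because whole embryos were pooled, fewer cells that express a gene and less RNA per cell cannot be told apart.

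Array medians ranged from 4.58 to 4.82 and the correlation between arrays from 0.936 to 0.974. On the array with the label male control replicate 2, the median was the highest and the SD the lowest (2.11, against 2.21 to 2.30 on the other arrays), and the sex-linked genes *XIST* and *DDX3Y* read as in females. *XIST* read 8.81 on it, against 8.42 to 10.03 in the 10 female arrays and 6.30 to 8.22 in the 9 other male arrays, and *DDX3Y* read 4.82, against 2.65 to 5.43 and 6.29 to 8.36. That array also held the lowest of the 20 values for 6 of the 26 tested carriers and the highest for 0, close to female control replicate 5 (5 and 0). The library labelled male control replicate 2 was kept under its label, and the results that rest on it are given with and without it. All 8 markers of the morula listed (*POU5F1*, *SOX2*, *NANOG*, *GATA6*, *CDX2*, *KLF5*, *GATA3* and *TEAD4*) were in the tested set, with means of 6.56 to 10.57. None of 7 cumulus and granulosa cell markers (means 2.94 to 5.25) and none of 4 sperm markers (2.54 to 5.48) was in it. The sperm marker *TNP1* (5.476) lay just under the lowest mean of the tested set (5.477). Its group means were 5.84 in both female groups, 4.98 in male controls and 5.26 in DKK1-treated males.

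The signal of the family spanned from the top of the array to the low end, as the plot of all members shows. The brightest members were the carriers that serve ATP synthesis. *SLC25A5*, an ADP/ATP carrier, had a mean of 11.03 over the 20 arrays, above 98.74% of all probe sets. *SLC25A3*, which brings phosphate into the matrix, followed with 10.43, and the probe sets of *SLC25A6*, another ADP/ATP carrier, with 9.99 and 9.56. After a gap came *SLC25A39* (8.62) and *SLC25A36* (8.23), then a near continuum from *SLC25A32* (7.87) to *SLC25A47* (5.77), the lowest member in the tested set, whose lowest mean was 5.48. The SDs of neighboring members in that continuum overlapped, whereas the 4 group means of *SLC25A5* (10.87 to 11.22) lay above those of *SLC25A3* (10.29 to 10.54). *SLC25A29*, which carries basic amino acids, fell just outside the tested set at 5.45. The lowest signals were those of *SLC25A31* (3.59), *SLC25A24* (3.37) and *SLC25A2* (3.26, above 22.46% of probe sets). Probe sets differ in their probes, so this is an order of signal on the log2 scale and not of transcript numbers.

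**Figure D1:**
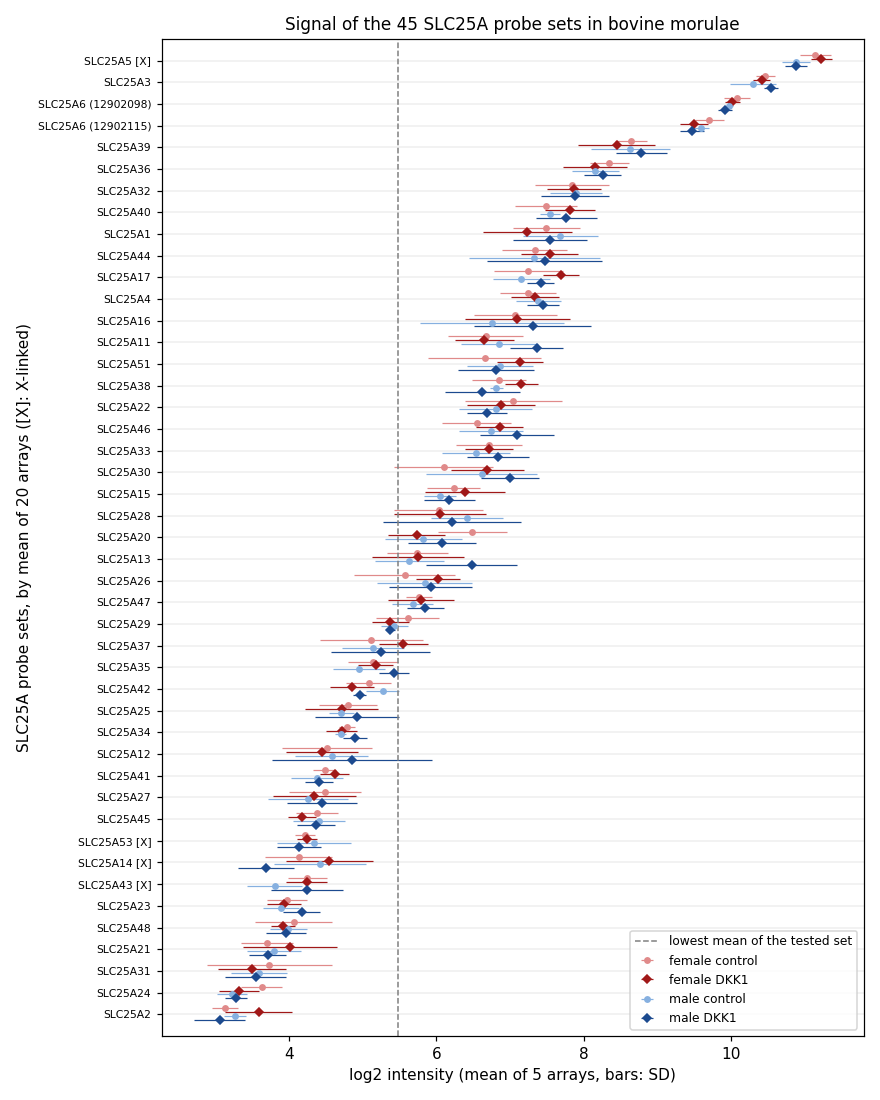
Log2 intensity (x axis) of the 45 SLC25A probe sets (y axis, by their mean over 20 arrays). Points are means of 5 arrays and bars are SDs for the control and DKK1 groups of each sex. The dashed line at 5.48 is the lowest mean of the tested set. *SLC25A5*, *SLC25A3* and *SLC25A6* stand above the other members with narrow bars.

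Among the tested carriers, the brightest also varied least between pools. The residual SD, the spread of single arrays around their group mean, was 0.114 and 0.168 for *SLC25A6*, 0.175 for *SLC25A5* and 0.185 for *SLC25A3*. The median was 0.425 over the 26 tested carriers and 0.366 over all tested probe sets, of which 5% lay below 0.160 and 5% above 0.788. For the 1237 probe sets at least as bright as the dimmer *SLC25A6* probe set, the median was 0.204. The most variable tested member was *SLC25A16*, a carrier linked to coenzyme A, with a residual SD of 0.776 and single arrays from 5.14 (male control replicate 2) to 8.28 (male DKK1 replicate 1).

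No carrier passed an adjusted P of 0.05 in any of the 5 comparisons made with limma (Benjamini-Hochberg over the 9933 tested probe sets). These were female minus male, DKK1 minus control, DKK1 minus control in females, the same in males, and the interaction, which is the DKK1 difference in females minus that in males. The DKK1 comparisons and the interaction use the same arrays and are not independent of each other. Over all tested probe sets the adjusted P called 0.101% for sex and 0% for each of the other 4 comparisons. The carriers were therefore also read at an unadjusted P of 0.05, the first criterion of the study's methods, as single differences that fail the correction.

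For sex, 2 of the 26 tested carriers had an unadjusted P under 0.05 (7.69%), *SLC25A5* higher and *SLC25A11* lower in females, against 6.39% of all tested probe sets (3.75% higher and 2.65% lower). For DKK1, 1 carrier (3.85%), *SLC25A17*, was higher after treatment, against 3.61% (2.37% higher and 1.25% lower). For DKK1 in females, *SLC25A20* was lower, against 4.11% of tested probe sets (2.51% higher and 1.6% lower). For DKK1 in males, *SLC25A13* was higher, against 4.28% (2.96% higher and 1.32% lower). For the interaction, *SLC25A20* had a difference below 0, against 4.6% (1.97% above 0 and 2.63% below 0). These shares of carriers are close to those of all tested probe sets, and none is a result about the family. No tested carrier had groups that did not overlap in the 4 comparisons of groups, against 0.0403% of tested probe sets for sex, 0% for DKK1, 0.634% for DKK1 in females and 0.775% for DKK1 in males.

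In DKK1-treated embryos 18 of the 26 tested carriers had a higher mean than in controls (69.2%, against 58.5% of all tested probe sets), with a median difference of 0.10 against 0.03 and a range from -0.25 to 0.48. Under other scalings of the arrays and without male control replicate 2, 16 or 17 carriers were above 0, with medians of 0.06 to 0.08 against -0.01 to 0.01 for all tested probe sets. The DKK1 difference was above 0 in both sexes for 11 carriers, below 0 in both for 4, above 0 in females only for 5 and in males only for 6. In males 17 carriers were above 0 (65.4%, against 56.9% of all tested probe sets), with a median of 0.13 against 0.04. Without male control replicate 2 these became 13 carriers and a median of 0.05, against 0.0006 for all tested probe sets. For sex, 15 carriers had a higher female mean (57.7%, against 47.8%) with a median of 0.02, against -0.01 for all tested probe sets. The balance turned to 9 carriers and -0.04 without male control replicate 2, where all tested probe sets had -0.03. Under array weights it was 11 carriers and -0.05, against -0.02. The interaction had a median of -0.02, the same as that of all tested probe sets, and both were 0.02 without male control replicate 2.

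The ADP/ATP carriers exchange ADP from the cytosol for ATP made in the matrix. *SLC25A5* lies on the X chromosome and was brighter in female than in male embryos. Its log2 intensities were 11.26, 11.10, 10.83, 11.13 and 11.38 in female controls, 11.16, 11.18, 11.19, 11.10 and 11.47 in DKK1-treated females, 10.94, 10.64, 10.84, 10.79 and 11.15 in male controls and 10.93, 10.67, 10.77, 10.96 and 11.04 in DKK1-treated males. Of the 10 female arrays, 9 lay above the male mean, and the sexes overlapped through female control replicate 3, which was low, and male control replicate 5, which was high. The female mean was 11.18 and the male mean 10.87, a difference of 0.31 (SE 0.0921, 1.24-fold, limma adjusted P = 0.268). Leaving out any single array gave differences of 0.27 to 0.34, all with an unadjusted P under 0.05, and without male control replicate 2 the difference was 0.28. The gene table placed 235 of the 9933 tested probe sets on the X chromosome and 7378 on autosomes. Among those 235, 66.4% had a higher female mean with an unadjusted P under 0.05 and 2.13% passed the adjusted P. The paper counts more expressed X-linked genes and reports a lower share as higher in females. DKK1 minus control was 0.08 for *SLC25A5* in females and 0.00 in males.

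The other ADP/ATP carriers had smaller sex differences. The gene table places *SLC25A6* on chromosome 26, a placement that is uncertain and was not checked against another source. *SLC25A6* read 9.83 to 10.37 with 1 probe set and 9.22 to 10.01 with the other. Its female minus male differences were 0.10 (SE 0.0746) and 0.07 (SE 0.0899), or 0.07 and 0.03 without female control replicate 1. Its probe sets therefore gave the same sign at different signal levels. *SLC25A4*, the form that prevails in heart and skeletal muscle, had a mean of 7.35, a range from 6.67 to 7.69 and a sex difference of -0.12 (SE 0.139), which was -0.05 without female control replicate 3. *SLC25A31*, a form known from the germ line, had a mean of 3.59, well under the tested set, although female control replicate 1 reached 5.17 and the next highest array was at 4.16. For DKK1, the dimmer *SLC25A6* probe set was at -0.17 (SE 0.0899) and the brighter at -0.06 (SE 0.0746). The unadjusted P of the dimmer probe set was over 0.05, and it was under 0.05 with array weights (-0.21), centring on autosomal probe sets (-0.21), a further quantile normalization (-0.20) and the unmoderated model (-0.17), and without female control replicate 4 (-0.19) or male DKK1 replicate 3 (-0.20).

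**Figure D2:**
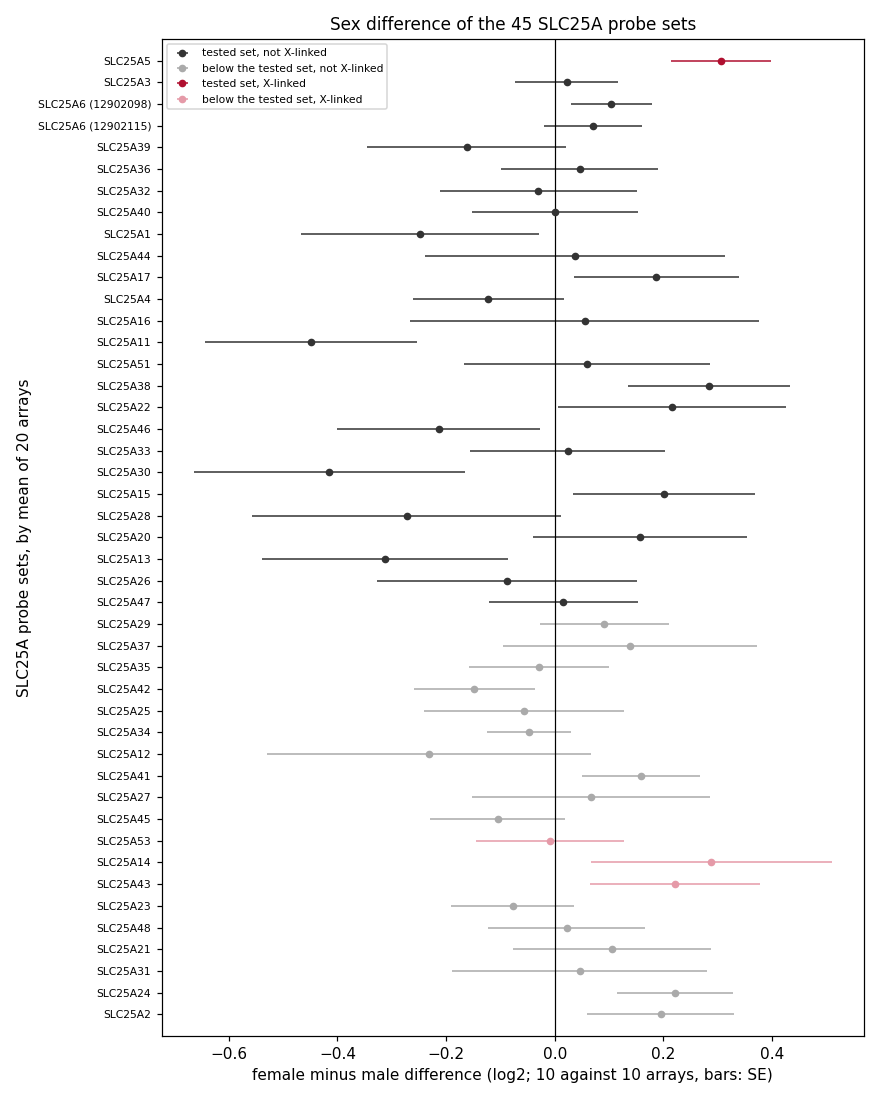
Female minus male difference in log2 intensity (x axis, 10 against 10 arrays, bars are SEs) of the 45 SLC25A probe sets (y axis, by mean signal). Dark points are in the tested set, pale points are below it and red points are members that the gene table places on the X chromosome. *SLC25A5* (0.31) and *SLC25A11* (-0.45) are the members with an unadjusted P under 0.05.

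*SLC25A3* supplies the phosphate that is joined to ADP. It read 10.46, 9.75, 10.32, 10.43 and 10.50 in male controls and 10.54, 10.61, 10.48, 10.41 and 10.64 in DKK1-treated males, so that 1 array, male control replicate 2, lay apart from the rest. The DKK1 difference in males was 0.25 (SE 0.135) with that array and 0.11 without it. Its unadjusted P was over 0.05 in both fits, and under 0.05 only when limma's prior was given an intensity trend and made robust. In females the difference was -0.05. The ATP-Mg/phosphate carriers *SLC25A25* (4.79), *SLC25A41* (4.47), *SLC25A23* (3.99) and *SLC25A24* (3.37; 3.05 to 3.93 in females and 3.01 to 3.55 in males), which set the adenine nucleotide pool of the matrix, all lay below the tested set.

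Among the carriers of carboxylates and of aspartate and glutamate, *SLC25A11* differed by sex at the unadjusted threshold and *SLC25A13* by DKK1 in males. *SLC25A11* exchanges 2-oxoglutarate for malate and *SLC25A13* (citrin) exchanges aspartate for glutamate, and both carry the malate-aspartate shuttle that moves reducing equivalents into the matrix. *SLC25A11* read 6.36, 6.48, 6.45, 7.58 and 6.47 in female controls, 6.43, 6.27, 6.82, 6.46 and 7.28 in DKK1-treated females, 7.32, 6.34, 6.23, 7.11 and 7.27 in male controls and 7.54, 7.89, 7.13, 6.99 and 7.26 in DKK1-treated males. Of the 10 female arrays, 8 lay below the male mean, but female control replicate 4 and female DKK1 replicate 5 were as high as most males, and male control replicates 2 and 3 were as low as most females. The mean was 6.66 in females and 7.11 in males, a difference of -0.45 (SE 0.194, 0.733-fold, limma adjusted P = 0.684). Without female control replicate 4 the difference was -0.56, and without male control replicate 2 it was -0.51. The unadjusted P exceeded 0.05 in 12 of the 20 analyses that left out 1 array, those without female DKK1 replicates 1, 2 or 4, female control replicates 1, 2, 3 or 5, male DKK1 replicates 1 or 2 or male control replicates 1, 4 or 5, where the difference lay between -0.43 and -0.38. The DKK1 difference of *SLC25A11* was 0.51 in males (SE 0.275) and -0.02 in females, with an unadjusted P over 0.05 in each. In males it was under 0.05 without female control replicate 4 (0.51) or male control replicate 1 (0.62).

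*SLC25A13* read 6.05, 5.20, 5.34, 6.23 and 5.36 in male controls and 5.52, 6.96, 6.32, 7.06 and 6.54 in DKK1-treated males. Of the treated male arrays, 4 were above every male control, and male DKK1 replicate 1 lay among the controls. The means were 5.64 and 6.48, a difference of 0.84 (SE 0.321, 1.80-fold, limma adjusted P = 0.986). It was 0.74 without male control replicate 2, and 0.70 with an unadjusted P just over 0.05 without male DKK1 replicate 4. Female controls ranged from 5.22 to 6.16 and DKK1-treated females from 4.68 to 6.30, with a difference of 0.01. The interaction of -0.83 (SE 0.454) did not pass the unadjusted threshold. It did so without female DKK1 replicate 4 (-0.97), male DKK1 replicate 1 (-1.07) or male control replicate 4 (-0.98).

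The remaining carriers of these classes had no unadjusted P under 0.05. The citrate carrier *SLC25A1* (mean 7.49), which exports citrate for lipid synthesis, had a sex difference of -0.25 (SE 0.22), which was -0.14 when male DKK1 replicate 2 was left out and -0.35 when male control replicate 2 was. The glutamate carrier *SLC25A22* (6.85) was at -0.14 for DKK1 and 0.22 (SE 0.209) for sex, the latter between 0.13 without female DKK1 replicate 5 and 0.34 without female control replicate 5. *SLC25A12*, the other aspartate/glutamate carrier, had a mean of 4.6 and *SLC25A21*, which carries oxoadipate, a mean of 3.81, both under the tested set. Enzymes that complete the malate-aspartate shuttle, *MDH1*, *MDH2*, *GOT1* and *GOT2*, were all in the tested set with means of 7.89 to 9.74. *GOT1*, the cytosolic aspartate aminotransferase, was lower in females at the unadjusted threshold (-0.36, SE 0.141, limma adjusted P = 0.576), and none of the other 3 had an unadjusted P under 0.05 in any comparison.

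**Figure D3:**
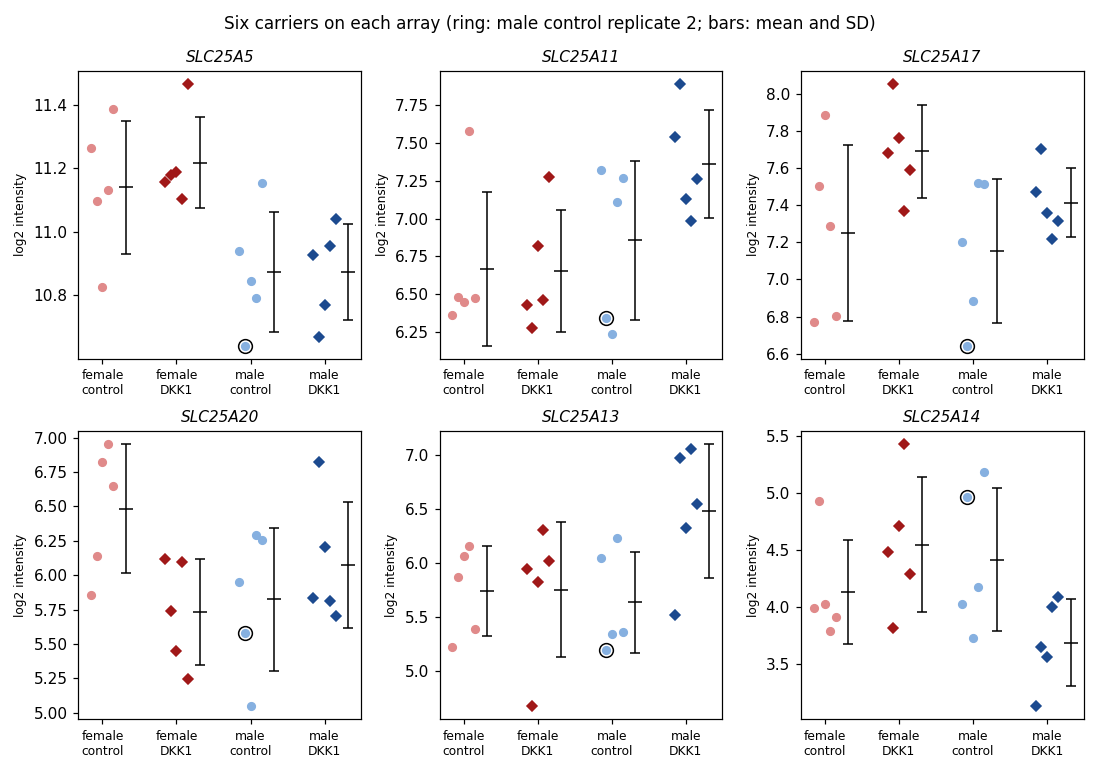
Log2 intensity (y axes, each with its own range) of *SLC25A5*, *SLC25A11*, *SLC25A17*, *SLC25A20*, *SLC25A13* and *SLC25A14* on each of the 20 arrays, by group (x axes). Bars give the mean and SD of 5 arrays and a ring marks male control replicate 2. Every pair of groups compared overlaps, for instance female controls (5.86 to 6.95) and DKK1-treated females (5.25 to 6.12) for *SLC25A20*.

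*SLC25A20* moves acylcarnitines into the matrix in exchange for carnitine and so feeds fatty acids to beta-oxidation. It read 5.86, 6.14, 6.83, 6.95 and 6.65 in female controls, 6.12, 5.74, 5.45, 6.10 and 5.25 in DKK1-treated females, 5.95, 5.58, 5.05, 6.29 and 6.26 in male controls and 5.83, 6.82, 6.21, 5.81 and 5.71 in DKK1-treated males. All 5 treated female arrays lay below the female control mean, and the groups overlapped only through female control replicate 1, which lay within the treated range. In females the means were 6.48 in controls and 5.73 after DKK1, a difference of -0.75 (SE 0.278, 0.594-fold, limma adjusted P = 0.998). In males the difference was 0.25 (SE 0.278), with an unadjusted P over 0.05, and 0.06 without male control replicate 3. The interaction was -1.0 (SE 0.393, limma adjusted P = 0.97). Leaving out single arrays gave interactions of -1.16 to -0.81, all with an unadjusted P under 0.05, and -0.94 without male control replicate 2.

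The other carriers of amino acids had no unadjusted P under 0.05 in the tested set. *SLC25A38*, which brings glycine into the matrix for heme synthesis, had a mean of 6.86 and a sex difference of 0.28 (SE 0.149), whose unadjusted P was under 0.05 only without male DKK1 replicate 1 or 2 (0.34 each). *SLC25A44*, a carrier of branched-chain amino acids, had a mean of 7.42 and differences of 0.04 for sex and 0.17 for DKK1. *SLC25A15*, an ornithine carrier of the urea cycle, had a mean of 6.21 and differences of 0.20 and 0.14. *SLC25A2*, the second ornithine carrier, had the lowest signal of all members (3.26) and the share of background in such readings is not known. It read 3.12, 3.13, 3.28, 2.84 and 3.27 in female controls and 4.05, 3.67, 3.96, 2.98 and 3.29 in DKK1-treated females, where 3 arrays were above the controls and 2 were not clearly so. The difference was 0.46 in females (SE 0.192, limma adjusted P = 0.999) and -0.21 in males (SE 0.192; -0.36 without male DKK1 replicate 3), with an interaction of 0.67 (SE 0.271, limma adjusted P = 1). The female difference and the interaction had an unadjusted P under 0.05. The female difference no longer did without female DKK1 replicate 1 (0.35) or 3 (0.37) or female control replicate 4 (0.39), nor the interaction without female DKK1 replicate 1 (0.55).

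Carriers of nucleotides and cofactors were the group with most members in the tested set, 9 of 10 probe sets. Their median DKK1 difference was 0.21 (0.03 in females and 0.15 in males), against 0.03 over all tested probe sets. The medians of the other groups ran from -0.09 for iron to 0.48 for relatives of the uncoupling proteins, each with 1 tested probe set. The 2 tested members with no settled substrate or in the outer membrane had 0.22. The median of 0.21 leaves out *SLC25A42*, which lies below the tested set and was lower after DKK1. It includes male control replicate 2, which held the lowest of the 20 values for *SLC25A36*, *SLC25A17*, *SLC25A16* and *SLC25A33*. The median was not computed without that array. *SLC25A17*, the member that sits in the peroxisome and carries coenzyme A, FAD and NAD, was the tested carrier that differed by DKK1 at the unadjusted threshold. It read 6.77, 7.50, 7.88, 7.29 and 6.80 in female controls, 7.68, 8.05, 7.76, 7.37 and 7.59 in DKK1-treated females, 7.20, 6.64, 6.88, 7.52 and 7.51 in male controls and 7.47, 7.70, 7.36, 7.22 and 7.31 in DKK1-treated males. All 10 treated arrays lay above the control mean, and the control arrays were more spread, some as high as the treated ones. The means were 7.55 with DKK1 and 7.20 without, a difference of 0.35 (SE 0.152, 1.27-fold, limma adjusted P = 1). Within the sexes the difference was 0.44 in females and 0.26 in males (SE 0.214 each), each with an unadjusted P over 0.05. The female difference had an unadjusted P under 0.05 with array weights (0.49) and without female DKK1 replicate 4 (0.52), female control replicates 2 (0.50) or 3 (0.60) or male control replicate 2 (0.44). Without male control replicate 2 it was 0.29 overall and 0.13 in males, and the overall difference no longer had an unadjusted P under 0.05. The same held without female DKK1 replicate 2 (0.30), female control replicate 1 or 5 (0.29 each), male DKK1 replicate 2 (0.31) or male control replicate 3 (0.32), and after a further quantile normalization (0.30).

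The rest of this group was described by smaller or more variable differences. *SLC25A40*, which like *SLC25A39* imports glutathione, had a mean of 7.65 and a DKK1 difference of 0.28 (SE 0.152), which had an unadjusted P under 0.05 only without male DKK1 replicate 2 (0.35). *SLC25A16* had a DKK1 difference in males of 0.55 (SE 0.455), which was 0.15 without male control replicate 2, the array with its lowest value, and 0.84 without male DKK1 replicate 4. *SLC25A51*, the carrier of NAD, had a mean of 6.87 and a DKK1 difference of 0.48 in females (SE 0.32), which was 0.78 with an unadjusted P under 0.05 without female control replicate 2 and 0.27 without female control replicate 3. *SLC25A39* (8.62), the pyrimidine nucleotide carriers *SLC25A36* (8.23) and *SLC25A33* (6.70), the folate and FAD carrier *SLC25A32* (7.87) and *SLC25A26* (5.84), which imports S-adenosylmethionine for methylation in the matrix, had DKK1 differences of -0.05 to 0.27. The coenzyme A carrier *SLC25A42* (5.04), below the tested set, ranged from 4.80 to 5.54 in the 10 controls and from 4.54 to 5.20 in the 10 treated arrays, of which 9 lay below the control mean. Its DKK1 difference was -0.27 (SE 0.111, limma adjusted P = 1). The unadjusted P was under 0.05 and exceeded it without female DKK1 replicate 1 (-0.23), female control replicates 3 (-0.24) or 5 (-0.22) or male control replicate 4 (-0.23).

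The mitoferrins, which import iron, differed in signal, with *SLC25A28* at 6.18 and *SLC25A37*, the form known from developing red cells, at 5.27, and neither had an unadjusted P under 0.05. Of the relatives of the uncoupling proteins, *SLC25A30* (6.60) was tested. It ranged from 5.11 to 7.37 in the 10 controls and from 6.04 to 7.62 in the 10 DKK1 arrays. Its DKK1 difference of 0.48 (SE 0.249) was the largest of the 26 tested carriers and did not pass the unadjusted threshold. It was 0.38 without male control replicate 2, and its unadjusted P was under 0.05 without female DKK1 replicate 4 (0.57), female control replicate 1 (0.58), male control replicate 1 (0.58) or male control replicate 3 (0.57). Its sex difference was -0.41 (SE 0.249), and -0.52 with an unadjusted P under 0.05 without male control replicate 2.

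*SLC25A14*, an X-linked relative of the uncoupling proteins, had a mean of 4.20, below the tested set. It read 4.00, 4.93, 4.03, 3.79 and 3.92 in female controls, 4.49, 3.82, 4.72, 5.43 and 4.29 in DKK1-treated females, 4.03, 4.97, 3.73, 4.18 and 5.18 in male controls and 3.14, 3.65, 3.56, 4.00 and 4.09 in DKK1-treated males. Treated males were all below the male control mean, and male control replicates 2 and 5 stood above the other male arrays. The DKK1 difference in males was -0.73 (SE 0.313, limma adjusted P = 1), in females 0.42 (SE 0.313) and the interaction 1.15 (SE 0.442, limma adjusted P = 1). The female difference was 0.20 without female DKK1 replicate 4 and 0.61 without female control replicate 2. The male difference and the interaction had an unadjusted P under 0.05. The male difference no longer did without male control replicate 2 (-0.59) or 5 (-0.54) or male DKK1 replicate 1 (-0.59) or 3 (-0.70). The interaction lay between 0.93 and 1.34 when single arrays were left out, with an unadjusted P under 0.05 throughout, and was 1.01 without male control replicate 2. *SLC25A27*, the third relative, had a mean of 4.39 and no unadjusted P under 0.05.

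The X-linked members below the tested set did not follow *SLC25A5* at the unadjusted threshold. The female minus male difference was 0.29 for *SLC25A14* (SE 0.221), or 0.18 without female DKK1 replicate 4. *SLC25A43* ranged from 3.81 to 4.59 in females and from 3.28 to 4.77 in males, with a difference of 0.22 (SE 0.157), or 0.13 without male DKK1 replicate 4. *SLC25A53* ranged from 3.98 to 4.39 in females and from 3.67 to 4.99 in males, and its difference was -0.01 (SE 0.136), which turned to 0.0501 under array weights, 0.0087 after centring on autosomal probe sets and 0.0447 without male control replicate 2. Their means lay between 4.14 and 4.24.

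Members with no settled substrate or in the outer membrane were mostly dim, with 2 of 8 probe sets in the tested set. *SLC25A46*, an outer membrane protein that acts in mitochondrial fission and lipid transfer, had a mean of 6.81 and a DKK1 difference of 0.33 (SE 0.187), which passed the unadjusted threshold only without female control replicate 1 (0.40) or male DKK1 replicate 4 (0.43). *SLC25A47* had a mean of 5.77 and a difference of 0.10. *SLC25A35* (5.18) ranged from 4.47 to 5.40 in male controls and from 5.20 to 5.71 in DKK1-treated males, all 5 of which lay above the control mean, with a difference of 0.47 (SE 0.182, limma adjusted P = 1). Its difference in females was 0.03. The unadjusted P in males was under 0.05, and over it without male DKK1 replicate 4 (0.40), without male control replicate 5 (0.35) and after centring on autosomal probe sets (0.40). *SLC25A34* (4.78), *SLC25A45* (4.34), *SLC25A43* (4.14) and *SLC25A48* (3.98) had no unadjusted P under 0.05. The DKK1 difference of *SLC25A43* in males was 0.43 in the reported fit. Its unadjusted P fell under 0.05 with array weights (0.48) and without male DKK1 replicate 4 (0.62), male control replicate 2 (0.54) or male control replicate 5 (0.51). Over the 19 probe sets below the tested set, the counts with an unadjusted P under 0.05 were 0 for sex, 1 for DKK1, 1 for DKK1 in females, 2 for DKK1 in males and 2 for the interaction, against 4.82%, 3.97%, 4.09%, 4.03% and 4.19% of all 26773 probe sets. Of 19 probe sets, 1 is already a larger share than any of these, so the counts give no result about these members. None passed the adjusted P, which called 0.0336% of all probe sets for sex, 0.00374% each for DKK1 in females and the interaction and 0% for the other comparisons.

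**Figure D4:**
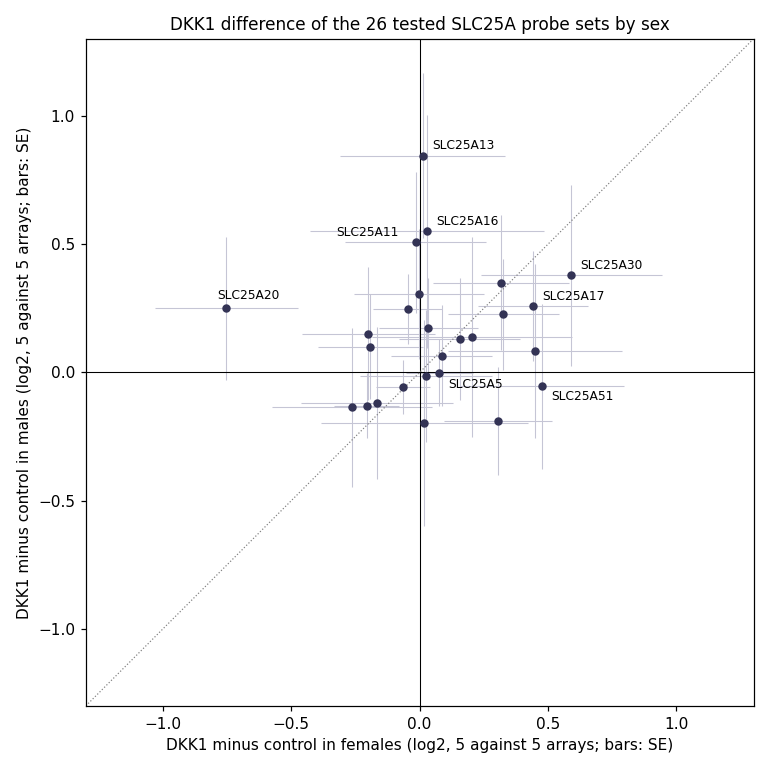
DKK1 minus control difference in log2 intensity in males (y axis) against that in females (x axis) for the 26 tested SLC25A probe sets, each from 5 against 5 arrays, with SEs as bars. The dotted line marks equal differences. *SLC25A20* (-0.75 in females, 0.25 in males) lies to the left and *SLC25A13* (0.01 and 0.84) at the top, away from the line.

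Genes that act with the carriers were read from the gene lists, with single differences at the unadjusted threshold. Of the family members known by other symbols, *MTCH2* (9.47) and *MTCH1* (8.68), outer membrane proteins, were in the tested set, whereas *UCP1*, *UCP2* and *UCP3* (2.97 to 5.38), the uncoupling proteins, were not, and none of the 5 had an unadjusted P under 0.05. Of 10 genes for the import of carriers into the inner membrane, 9 were in the tested set. Among these *TIMM8A*, an X-linked chaperone of the intermembrane space, was higher in females at the unadjusted threshold (0.37, SE 0.127, limma adjusted P = 0.431). *TIMM10B*, part of the inner membrane translocase, had an unadjusted P under 0.05 for DKK1 in females (-0.76) and for the interaction (-0.99, limma adjusted P = 0.97). Each call is 1 of the 9 tested import genes. Over all tested probe sets the shares were 6.39% for sex, 4.11% for DKK1 in females and 4.6% for the interaction. For sex, *GOT1* was 1 of 4 shuttle enzymes, and so few genes give no result about the lists. The outer membrane channel *VDAC1* (8.52) and the pyruvate carrier subunit *MPC1* (8.79) had no unadjusted P under 0.05. No member of these lists passed an adjusted P of 0.05. The cell type markers below the tested set included *INHBA*, which was at 0.48 for DKK1, and *AMH*, at -0.28, both with an unadjusted P under 0.05. By sex, *INHBA* was at 0.76 in females and 0.21 in males, and *AMH* at -0.43 and -0.14. These passed the unadjusted threshold in females only. The mean over the 7 cumulus and granulosa markers was 3.85 to 4.14 in female controls and 4.06 to 4.32 in DKK1-treated females. It was 3.93 to 4.40 in male controls and 3.96 to 4.20 in DKK1-treated males. The part of these markers in the DKK1 differences of the carriers was not tested.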

How the data were processed

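RNA of 20 pools of 20 bovine morulae was measured, 1 array a pool, on the Bovine Gene 1.0 ST design of Affymetrix. The deposited values are log2 intensities, 1 per probe set and array, which the authors obtained by robust multi-array average in the Expression Console program (background-corrected, quantile-normalized). Program versions are not given in the sources used here, and no further normalization was applied. Quantile normalization makes the arrays' distributions alike, so a change shared by most genes would not be seen, and the number of arrays limits the precision.

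Groups came from the labels, and no array was left out. Genes were named from the platform annotation (18457 probe sets with 1 symbol, 688 with several, 7628 with none listed), which can be old. Chromosomes came from the gene table of assembly ARS-UCD2.0, 44 members by gene identifier and 1 by symbol. The 9933 brightest probe sets by mean signal were tested, to match the number that the methods call expressed, since the negative control probes were not used here. Differences were fitted in R 4.3.3 with limma 3.58.1 as a model of the 4 group means without a replicate term, with Benjamini-Hochberg adjustment over the whole tested set. Members below it take their values from a fit of all 26773 probe sets. The fit was tested on simulated data. Tables and plots used Python 3.11.15, NumPy 2.4.6, pandas 2.3.3 and matplotlib 3.10.9. No protein or promoter sequences were used here.

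All members are accounted for. Those described with single arrays or ranges over arrays are the ADP/ATP carriers, the X-linked members, the tested members with an unadjusted P under 0.05, and the 3 brightest and 3 dimmest. Members *SLC25A30*, *SLC25A35* and *SLC25A42* were added after their values were seen. The members, transport groups, gene lists and tests were chosen with earlier results of these data known. As alternatives, the fit was repeated with array weights, a replicate block, no moderation, an intensity trend and robust prior, no expression threshold, named probe sets only, 2 other scalings, and each array left out in turn.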

Additional observations from a re-analysis of the deposited data

Results flagged for a closer look

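Single arrays that lay far from the other 4 of their group were looked for in the 15 members described in full, 60 groups of 5 arrays in all. With Dixon's criterion at a critical value of 0.71, 5 groups held such an array, and chance alone marks about 1 in 20 groups. *SLC25A5* read 11.47 on female DKK1 replicate 5, and the next array of the group was at 11.19. *SLC25A3* read 9.75 on male control replicate 2, against 10.32 on the next, and this array also carried female readings of *XIST* and *DDX3Y*. *SLC25A11* read 7.58 on female control replicate 4, against 6.48. *SLC25A14* read 4.93 on female control replicate 2, against 4.03. *SLC25A2* read 3.66 on male DKK1 replicate 3, against 3.02.

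The DKK1 difference in females and that in males differed at an unadjusted P under 0.05 for 3 of 45 probe sets, against 4.19% of all 26773 probe sets. The interaction in limma was -1.0 for *SLC25A20*, 1.15 for *SLC25A14* and 0.67 for *SLC25A2*, of which the latter pair lie below the tested set. None passed the adjusted P, with values of 0.97, 1 and 1.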

How the results depend on the processing

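The count of carriers with an adjusted P under 0.05 was 0 in all 5 comparisons and all 28 alternatives, 20 of which left out 1 array. The count at an unadjusted P under 0.05 for DKK1, 1 in the report, was 2 with the unmoderated linear model, array weights, no expression threshold, named probe sets only and centring on the autosomal median. For DKK1 in females it was 2 in place of 1 with array weights and with no expression threshold. For DKK1 in males it was 2 in place of 1 with an intensity trend and robust prior and with named probe sets only, and 3 with no expression threshold. For the interaction it was 3 in place of 1 with no expression threshold, which admits all 45 probe sets. When single arrays were left out, the counts ranged from 1 to 3 for sex, 0 to 2 for DKK1, 1 to 3 for the interaction, 1 to 3 for DKK1 in females and 1 to 2 for DKK1 in males. They were 0 for DKK1 without female control replicate 5 or male control replicate 2, and 3 for sex without male control replicate 2, where *SLC25A30* (-0.52) joined *SLC25A5* and *SLC25A11*. The cause of these shifts was not tested. The sex difference of *SLC25A53*, -0.01, turned to 0.0501 with array weights and to 0.0087 after centring on the autosomal median, and lay between -0.0673 and 0.0738 when single arrays were left out.

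The labels do not say that a replicate number marks a shared day or batch. The paper states that pools were harvested in 5 replicates, and it used replicate as a random effect for embryo development but not for the arrays. The 30 correlations of the deviations of same-numbered arrays ran from -0.18 to 0.13 with a median of 0.02, 2 of them over 0.1. The numbers were not taken to pair the pools, but these values do not settle whether pools of 1 number were made together. As a hint from the data, 12 of 20 arrays correlated best with an array of their own number, which 3 of the 15 arrays of other groups bear. These were all 12 arrays numbered 1, 3 or 5 and 0 of the 8 numbered 2 or 4, and the highest correlation, 0.37, was between male control replicate 2 and female DKK1 replicate 4. With a replicate block the unadjusted counts stayed at 2 for sex and at 1 for each of the other 4 comparisons, and the adjusted counts at 0. The block takes the numbers as labelled, so it cannot show the effect of a pairing that the numbers 2 and 4 do not follow. For *SLC25A24*, below the tested set, the sex difference of 0.22 and the DKK1 difference in females of -0.31 had an unadjusted P under 0.05 with the block and over it in the reported fit. Without a block the sex difference also passed with the unmoderated model, with an intensity trend and robust prior and in 5 analyses that left out 1 array, and the DKK1 difference with array weights and in 4 of them.

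Signal limits the dim members: 19 of 45 probe sets lie below a mean of 5.48, where intensities hold a larger share of background and differences on the log2 scale are understated. The differences by single array and setting in the report all concern unadjusted P values.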
